A study of Triticum aestivum with 2 samples.

Results

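The MNase hypersensitive sites (MHSs) of homoeologous group 1 of common wheat are the peaks that lie on chromosomes 1A, 1B and 1D in the deposited peak lists. They were selected by chromosome name alone, and they comprise 37093 of the 289446 MHSs of the seedling and 35731 of the 277119 MHSs of the spikelet. The material was the wild-type cultivar Chinese Spring. Seedlings were labelled as 10 days old, and spikelets were taken at the booting stage. The methods give a slightly lower age for the seedlings and name both whole seedlings and their above-ground parts as the material. In MH-seq, cross-linked nuclei are digested with micrococcal nuclease (MNase) and the short fragments are sequenced, and these come mostly from accessible DNA. Each tissue has 1 list called on 2 merged biological replicates. There is therefore no replicate spread, no test was made between tissues or chromosomes, and the intervals given below are 95% Wilson intervals that cover counting error only.

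Common wheat is an allohexaploid, and 1A, 1B and 1D descend from the same ancestral chromosome through the diploid parents of the A, B and D subgenomes. The short arms carry gliadin and low-molecular-weight glutenin genes, the long arms carry high-molecular-weight glutenin genes, and the short arm of 1B also carries an array of ribosomal RNA genes. Wheat chromosomes are typically gene-rich towards their ends and rich in transposable elements around the centromere. By convention the reference starts at the tip of the short arm. The positions of genes and of the centromeres were not used here, and positions are distances from the start of the joined chromosome in version 1.0 of the IWGSC reference sequence. The files cut each chromosome into 2 parts. Part 2 was placed after part 1, and the length of a part was taken as the end of its last MHS in either list.

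The 3 homoeologs differed more in length than in the number of MHSs. The length was 594 Mb for 1A, 690 Mb for 1B and 495 Mb for 1D. Chromosome 1A had 11980 seedling and 11527 spikelet MHSs. Chromosome 1B had 13634 and 12833, and 1D had 11479 and 11371. The shortest homoeolog, 1D, thus had the densest MHSs, with 23.2 seedling and 23.0 spikelet MHSs per Mb. The density was 20.2 and 19.4 per Mb on 1A and 19.8 and 18.6 on 1B. Relative to 1A, the density of 1D was 1.15 times as high for seedling MHSs and 1.18 times for spikelet MHSs, and that of 1B was 0.980 and 0.959 times as high. Each of the homoeologs had more seedling than spikelet MHSs, by 453 on 1A, 801 on 1B and 108 on 1D. This order of the tissues depended on the q threshold. Over all chromosomes, 66.1% of seedling and 81.1% of spikelet MHSs reached a q of at most 1e-05, and among these the spikelet had more MHSs on each homoeolog. The numbers were 9413 against 7932 on 1A, 10334 against 8906 on 1B and 9274 against 7738 on 1D.

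The single MHSs were alike on the homoeologs. The median fold enrichment over the local background was 4.07 on 1A, 4.03 on 1B and 4.05 on 1D among seedling MHSs, and 4.47, 4.47 and 4.41 among spikelet MHSs. Seedling MHSs had a median width of 349, 349 and 354 bp, and spikelet MHSs had one of 336, 334 and 334 bp. The median distance to the next MHS of the same list was 11.0 kb on 1A, 11.7 kb on 1B and 9.70 kb on 1D for seedling MHSs, and 8.46, 9.55 and 7.74 kb for spikelet MHSs. The densities lay within the range of the other 6 chromosomes of the same subgenome. For example, the seedling density of 1A was 20.2 per Mb against 18.2 on 4A to 20.9 on 7A, that of 1B was 19.8 against 17.1 on 4B to 20.99 on 2B, and that of 1D was 23.2 against 19.5 on 4D to 24.5 on 5D.

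In 10 Mb bins, all 3 homoeologs showed the same outline, with a dense start, a trough in the first part of the chromosome and a long rise to the far end. The range between bins was wide. Seedling counts ran from 61 to 478 MHSs in the 59 full bins of 1A, from 57 to 448 in the 68 bins of 1B and from 64 to 530 in the 49 bins of 1D. Spikelet counts ran from 16 to 480, from 39 to 433 and from 49 to 518. The median bin held 167 seedling and 160 spikelet MHSs on 1A, 173 and 173 on 1B, and 210 and 205 on 1D. Bins with under 100 MHSs were 8 of 59 for seedling and 12 of 59 for spikelet MHSs on 1A, 5 and 11 of 68 on 1B, and 3 and 5 of 49 on 1D. In each of the 6 profiles, the bins that together held 50% of the MHSs made up between 28.8% and 33.8% of all full bins.

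**Figure D1:**
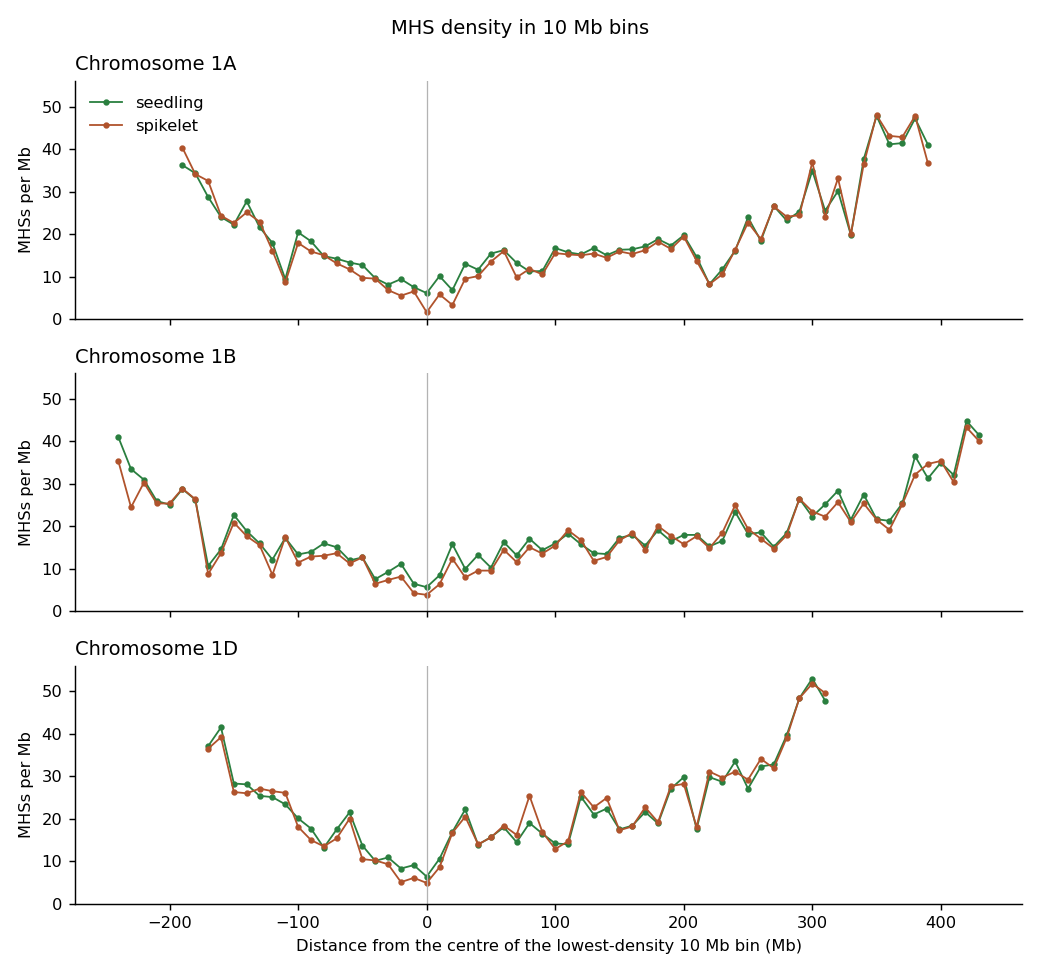
MHSs per Mb in full 10 Mb bins of 1A, 1B and 1D, against the distance in Mb from the centre of the bin with the fewest MHSs of both lists; each point is 1 bin of 1 list. The lines of both tissues lie close together along most of each chromosome, and the spikelet lies below the seedling around the grey line at 0, where the bin of 1A holds 61 seedling and 16 spikelet MHSs.

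The bin with the fewest MHSs lay at 190 to 200 Mb on 1A, with 61 seedling and 16 spikelet MHSs. On 1B it lay at 240 to 250 Mb with 57 and 39, and on 1D at 170 to 180 Mb with 64 and 49. The centres of these bins were at 32.8%, 35.5% and 35.3% of the chromosome length, so that they nearly matched on a relative scale although they lay up to 70 Mb apart. On 1B the lowest interval began within 5 Mb of this under other bins. With bins that start 5 Mb later, the lowest bin of 1A moved to 205 Mb and that of 1D to 145 Mb. The trough is therefore better read as a stretch of several bins than as a point, and a stretch of 30 Mb on either side of the centre was used below. In this stretch the seedling density was 8.63 per Mb on 1A, 9.55 on 1B and 11.0 on 1D. The spikelet density was 5.45, 7.08 and 9.08 per Mb. In this stretch both lists thus had the order 1A, 1B, 1D from sparse to dense, and the homoeologs were spread further apart in the spikelet. The order depended on the stretch chosen. The lowest bins kept it for the spikelet, but for the seedling 1B had fewer MHSs than 1A, with 57 against 61. From 30% to 35% of the length 1B was the densest in both lists, with 8.78 seedling and 6.70 spikelet MHSs per Mb. There 1D had 8.08 and 5.21, and 1A had 7.57 and 4.58.

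Both ends of each homoeolog were dense. The far end was denser than the start over the outermost 10% and over 50 Mb, but not in each case over the outermost 10 Mb. The outermost 10% at either end make up 20% of the length. They held 35.1% (34.3 to 36.0) of seedling and 36.9% (36.0 to 37.8) of spikelet MHSs on 1A. They held 33.7% (32.9 to 34.5) and 33.9% (33.1 to 34.8) on 1B, and 33.5% (32.6 to 34.3) and 33.1% (32.3 to 34.0) on 1D. Over all 21 chromosomes the share was 33.6% for seedling and 33.5% for spikelet MHSs, so the share of 1B and 1D was near the background of the lists. That of 1A was higher but within the range of the 6 other A chromosomes. Their range was 29.0% on 5A to 38.3% on 2A for seedling MHSs, and 29.1% to 39.1% on the same chromosomes for spikelet MHSs. The start alone held 14.3% of the seedling MHSs on 1A, 15.3% on 1B and 13.8% on 1D, against 20.9%, 18.4% and 19.6% at the far end. The 18 chromosomes of the other groups held 15.5% at the start and 18.1% at the far end. For 1A, the far end share of 20.9% stood beside 16.5% to 20.7% on the 6 other A chromosomes. In the spikelet it was 21.6%, within their range of 16.8% on 7A to 21.9% on 6A.

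Counted in fixed lengths, the last 50 Mb held 1.47 times as many seedling MHSs as the first 50 Mb on 1A, 1.17 times on 1B and 1.41 times on 1D. The ratios in the spikelet were 1.40, 1.25 and 1.45. The last 50 Mb of 1A held 2144 seedling and 2148 spikelet MHSs, those of 1B held 1839 and 1760, and those of 1D held 2268 and 2242. The first 50 Mb held 1454 and 1538 on 1A, 1567 and 1411 on 1B, and 1604 and 1551 on 1D. The far end of 1B was thus the sparsest of the 3 in both lists, whereas at the start the order differed between the lists. The densest bin was not the last one. It lay at 540 to 550 Mb on 1A, which leaves 44.1 Mb to the tip, at 660 to 670 Mb on 1B with 19.8 Mb to the tip, and at 470 to 480 Mb on 1D with 15.4 Mb to the tip. It held 478 seedling and 480 spikelet MHSs on 1A, 448 and 433 on 1B, and 530 and 518 on 1D. The last 10 Mb held 377 and 334 on 1A, 304 and 266 on 1B, and 430 and 411 on 1D. The first 10 Mb held 362 and 403 on 1A, 411 and 355 on 1B, and 371 and 365 on 1D, so the tip at the start was the denser one on 1B in both lists and on 1A in the spikelet. Before the trough, the densest bin was the first 10 Mb on 1A and 1B, and 10 to 20 Mb on 1D.

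**Figure D2:**
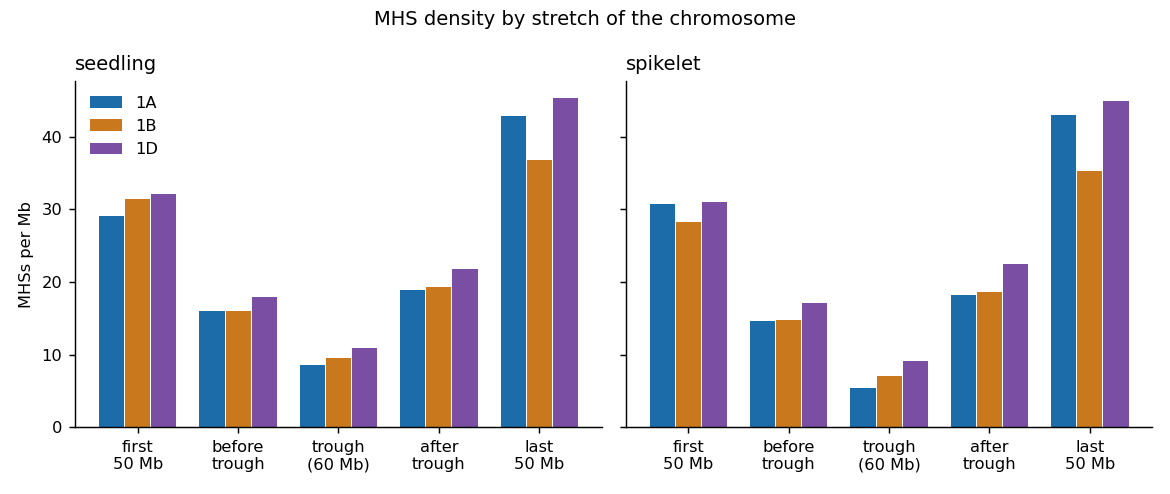
MHSs per Mb in 5 stretches of 1A, 1B and 1D in the seedling and the spikelet; each bar is 1 chromosome in 1 list, and the trough is 30 Mb on either side of the centre of the lowest bin. In both lists 1D has the highest bar in each stretch, and 1B has the lowest one in the last 50 Mb, with 36.8 seedling and 35.2 spikelet MHSs per Mb.

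The first and the last 50 Mb are equally long on each homoeolog, so the difference in length falls between them by construction. The stretch between them measured 494 Mb on 1A, 590 Mb on 1B and 395 Mb on 1D. This stretch was less dense than the ends on each homoeolog, with 17.0 seedling MHSs per Mb on 1A, 17.3 on 1B and 19.2 on 1D, and 15.9, 16.4 and 19.2 in the spikelet. Chromosome 1B was 194 Mb longer than 1D. In the seedling it had 2621 more MHSs in the middle and 466 fewer in the outer 100 Mb. In the spikelet it had 2084 more in the middle and 622 fewer in the outer stretches. Chromosome 1D was thus denser than 1B both in the middle and in the outer stretches.

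On a relative scale, the profiles of the homoeologs were similar. Over 20 bins of 5% of the length, Pearson's r of the seedling counts was 0.965 between 1A and 1B, 0.967 between 1A and 1D, and 0.974 between 1B and 1D. In the spikelet it was 0.954, 0.955 and 0.959. These values describe bins of the same libraries, which share the slope towards the ends and are not independent. With 50 bins they were between 0.890 and 0.931. Both lists of the same homoeolog were still more alike, with r of 0.995 on 1A, 0.991 on 1B and 0.991 on 1D over 20 bins. The lowest bin was that from 30% to 35% of the length on each homoeolog and in both lists. It held 7.57 seedling and 4.58 spikelet MHSs per Mb on 1A, 8.78 and 6.70 on 1B, and 8.08 and 5.21 on 1D. The highest bin was the last 5% on 1B and 1D and the bin before it on 1A.

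**Figure D3:**
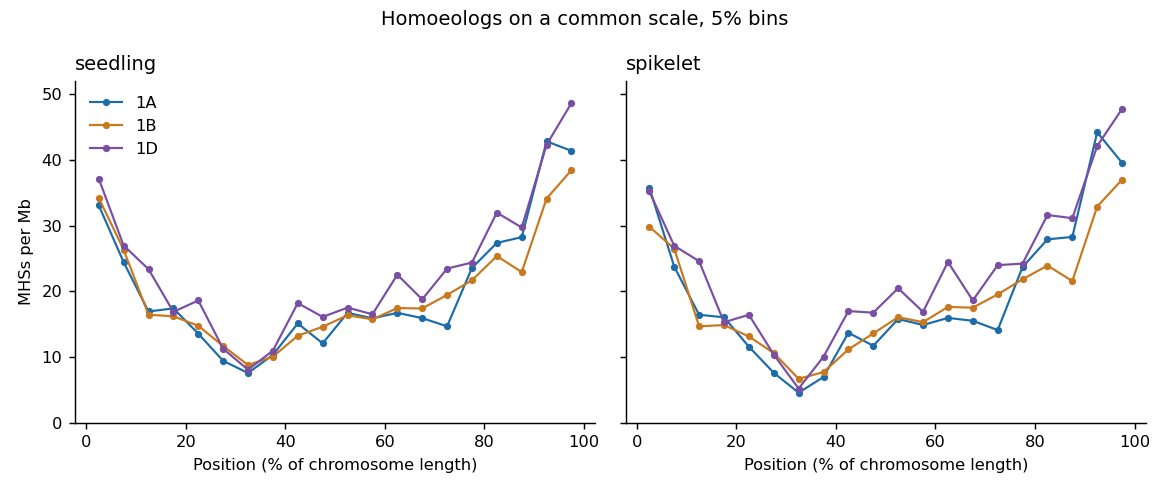
MHSs per Mb in bins of 5% of the chromosome length for 1A, 1B and 1D, in the seedling and the spikelet; each point is 1 bin of 1 chromosome. The 3 lines share the lowest bin, from 30% to 35% of the length, and 1D ends highest with 48.7 seedling and 47.8 spikelet MHSs per Mb in the last bin.

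An MHS was called tissue-only when it shared not even 1 bp with a peak called in the other tissue. Over all 21 chromosomes, 37.0% of seedling and 32.6% of spikelet MHSs were tissue-only. The seedling-only share was 37.0% (36.1 to 37.8) on 1A with 4430 MHSs, 38.1% (37.3 to 38.9) on 1B with 5197, and 35.0% (34.2 to 35.9) on 1D with 4022. The interval of 1D lay below those of 1A and 1B. The spikelet-only share was 33.1% (32.2 to 34.0) on 1A with 3815 MHSs, 32.8% (32.0 to 33.6) on 1B with 4207, and 32.9% (32.1 to 33.8) on 1D with 3745. With both lists limited to a q of at most 1e-05, the seedling-only share was below the spikelet-only share on each homoeolog, by 10.5 percentage points on 1A, 8.92 on 1B and 11.3 on 1D. The spikelet-only intervals of the full lists overlapped between the homoeologs, and a difference between them was not tested. All 6 shares lay within 2 percentage points of the background of the lists. Tissue-only MHSs had a lower fold than common ones on each homoeolog. For seedling MHSs the medians were 3.55 against 4.66 on 1A, 3.55 against 4.65 on 1B and 3.52 against 4.58 on 1D. For spikelet MHSs they were 3.83 against 5, 3.86 against 4.92 and 3.83 against 4.91.

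Along the chromosomes, the share of seedling-only MHSs among seedling MHSs was highest in the trough and at the start. The full bin with the highest seedling-only share was the bin with the fewest MHSs on each homoeolog. It reached 83.6% on 1A with 51 of 61 MHSs, 68.4% on 1B with 39 of 57, and 62.5% on 1D with 40 of 64. In the 60 Mb around it the share was 56.8% (52.5 to 61.0) on 1A, 51.3% (47.2 to 55.4) on 1B and 48.3% (44.5 to 52.1) on 1D. Outside it the share was 36.1% (35.2 to 37.0), 37.5% (36.7 to 38.4) and 34.2% (33.3 to 35.1). The lowest shares lay on the far side of the trough, with 26.3% at 310 to 320 Mb on 1A, 24.6% at 420 to 430 Mb on 1B and 23.7% at 310 to 320 Mb on 1D. Before the trough, 1A and 1D came close to these, with 26.4% at 110 to 120 Mb and 24.4% at 60 to 70 Mb. On 1B the lowest share there was 31.9%, at 60 to 70 Mb. At the start, the first 10 Mb had a seedling-only share of 49.2% on 1A, 48.2% on 1B and 47.4% on 1D. The last 10 Mb had 45.6%, 41.4% and 37.4%.

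**Figure D4:**
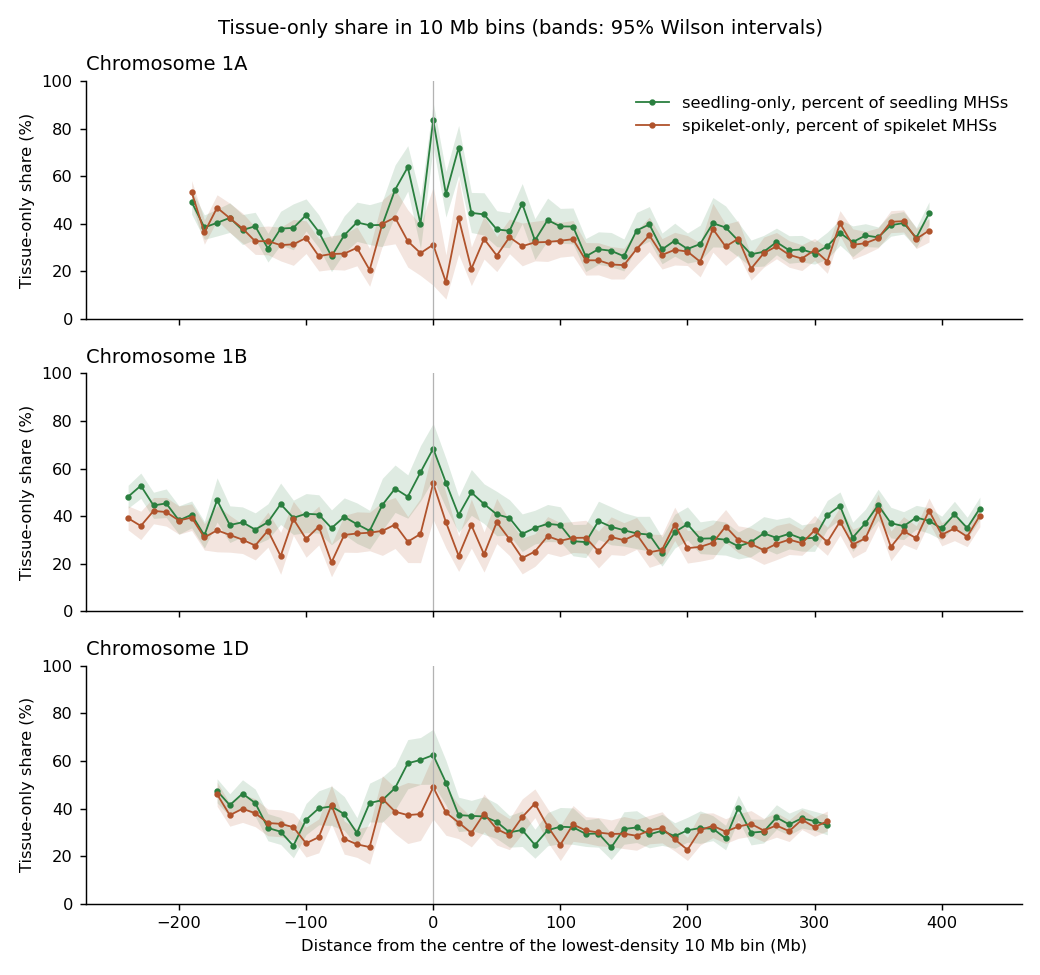
Tissue-only MHSs as a percentage of the MHSs of the same list in full 10 Mb bins of 1A, 1B and 1D, against the distance in Mb from the centre of the bin with the fewest MHSs; bands are 95% Wilson intervals. The seedling line peaks at 0 with 83.6% on 1A, 68.4% on 1B and 62.5% on 1D, and at the same point the spikelet line is at 53.8% on 1B and 49.0% on 1D, its highest values there, and at 31.3% on 1A.

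The spikelet-only share of the trough was 29.1% (24.4 to 34.2) on 1A, 33.2% (28.9 to 37.8) on 1B and 36.1% (32.2 to 40.3) on 1D. Outside it the share was 33.2%, 32.8% and 32.8%, and each of these lay within the interval of the trough. Among the full bins with at least 50 spikelet MHSs, the lowest spikelet-only share was 15.5% at 200 to 210 Mb on 1A, next to the sparsest bin, 20.6% at 160 to 170 Mb on 1B and 22.7% at 370 to 380 Mb on 1D. The highest was 53.3% and 46.0% in the first 10 Mb of 1A and 1D, and 42.6% at 590 to 600 Mb on 1B. The sparsest bins had fewer spikelet MHSs than this minimum, and there the spikelet-only share was 53.8% on 1B with 21 of 39 MHSs and 49.0% on 1D with 24 of 49, above each other full bin of these homoeologs, and 31.3% on 1A with 5 of 16. In the trough, fewer spikelet than seedling MHSs were called, with 327 against 518 on 1A, 425 against 573 on 1B and 545 against 659 on 1D. The ratio of spikelet to seedling MHSs was thus 0.631, 0.742 and 0.827 in the trough, and 0.977, 0.950 and 1.00 outside it. The same direction was seen on all 21 chromosomes for both the ratio and the seedling-only share, so it was not particular to group 1.

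The seedling MHSs of the trough had a lower median −log10 q than the rest of the chromosome, which moved with this result. Their median −log10 q was 5.10 on 1A, 5.69 on 1B and 5.83 on 1D, against 7.06, 6.75 and 7.18 outside it. The start was also weak, and its first 10 Mb had a median of 5.69 on 1A, 5.76 on 1B and 5.47 on 1D. On 1D this was below the trough. The median seedling fold of the first 10 Mb was lower than that of the trough on each homoeolog. It was 3.79, 3.85 and 3.75 against 3.91, 3.92 and 3.85. The median −log10 q of the spikelet MHSs was 10.8, 10.4 and 9.52 in the trough and 9.62, 9.41 and 9.63 outside. With both lists limited to a q of 1e-05 or lower, the seedling-only share of the trough was 32.3% (27.0 to 38.2) on 1A, 32.7% (27.8 to 38.0) on 1B and 26.1% (22.0 to 30.7) on 1D. Outside the trough it was 25.7% (24.7 to 26.7), 27.3% (26.4 to 28.3) and 25.0% (24.0 to 25.98). The spikelet-only share on 1A was then 25.0% (20.0 to 30.7) in the trough and 36.7% (35.7 to 37.7) outside, while the intervals overlapped on 1B and 1D. For the seedling-only share, a difference thus remained beyond the intervals on 1A. On 1B and 1D the share was also higher in the trough, but the intervals overlapped. Overlap alone does not decide whether a difference remained there, and this was not tested. The ratio of spikelet to seedling MHSs at this threshold was 0.932 in the trough and 1.196 outside on 1A, 1.07 and 1.16 on 1B, and 1.11 and 1.203 on 1D. The part of weak peaks in the trough result was not tested further, since a peak list gives no signal where no peak was called.

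**Figure D5:**
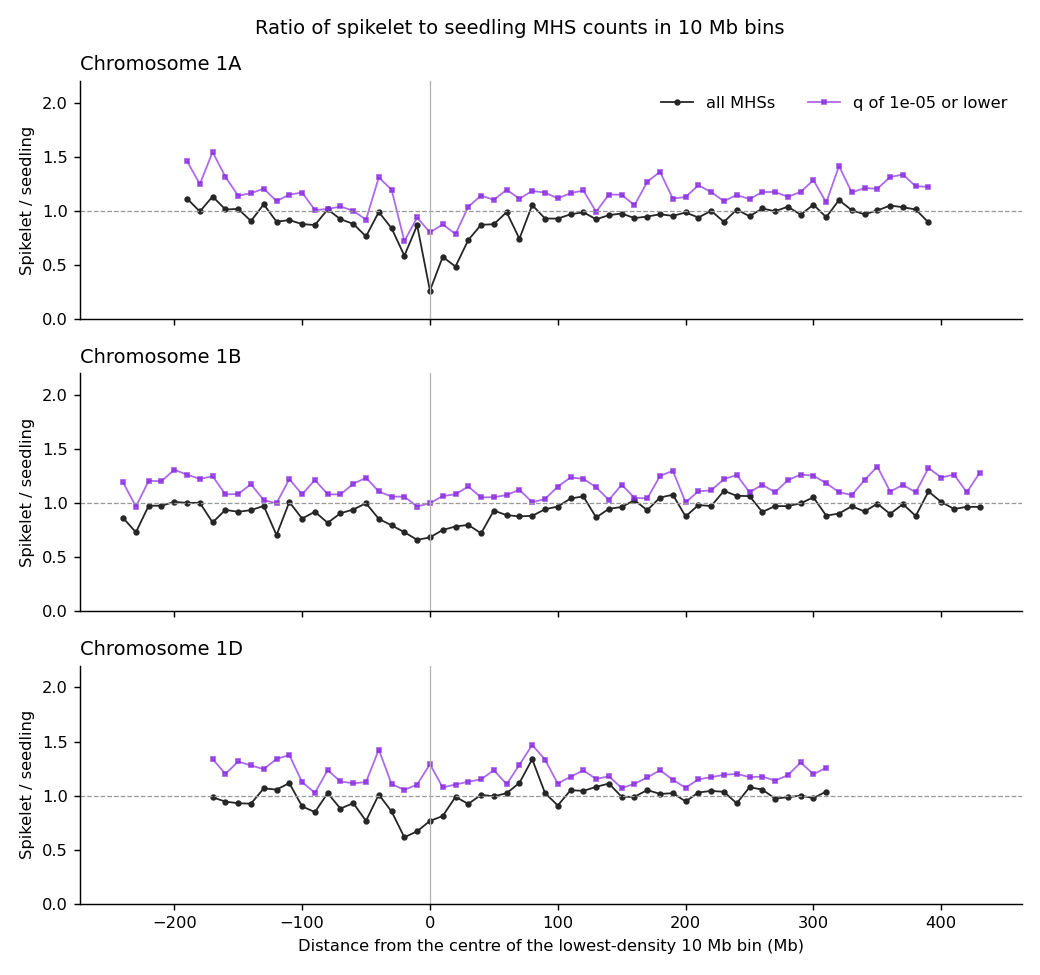
Ratio of the number of spikelet to seedling MHSs in full 10 Mb bins of 1A, 1B and 1D, for all MHSs and for those with a q of 1e-05 or lower, against the distance in Mb from the centre of the bin with the fewest MHSs; the dashed line marks equal numbers. The ratio for all MHSs has its lowest value at 0 on 1A, 0.262, and stands out above 1 on 1D, at 1.34 in the bin from 250 to 260 Mb.

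Spikelet MHSs outnumbered seedling MHSs in 17 of 59 bins on 1A, 15 of 68 on 1B and 23 of 49 on 1D. With a q of at most 1e-05 they did so in 51, 64 and 49 bins. The highest ratio on 1D was 1.34, in the bin from 250 to 260 Mb with 254 spikelet and 190 seedling MHSs. This bin holds a run of 44 spikelet-only MHSs with no seedling MHS between them, from 254380658 to 254533112 on part 1. Without the run the bin held 210 spikelet MHSs and the ratio was 1.11. The median local background of the run was 27.1 reads, 4.76 times the median of the spikelet list, and its part in the run was not tested. On 1B, the bin from 10 to 20 Mb is an example in the other direction, with 335 seedling and 245 spikelet MHSs, a ratio of 0.731. Its seedling-only share was 52.8% (47.5 to 58.1), while its spikelet-only share was 35.9% (30.2 to 42.1). With a q of 1e-05 or lower its ratio was 0.969. This bin was chosen after its values were seen, and its ratio was not the lowest of 1B. Ratios were lower at 120 to 130 Mb with 0.705, at 280 to 290 Mb with 0.722 and in the trough. The lowest was 0.662 at 230 to 240 Mb.

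The start of 1A differed between the tissues by a run of spikelet-only MHSs. The first 0.5 Mb of 1A held 73 spikelet MHSs and no seedling MHS, whereas the first 0.5 Mb of 1B held 7 spikelet and 12 seedling MHSs, and that of 1D held 30 and 35. The first seedling MHS lay at 807294 on 1A, at 2292 on 1B and at 33229 on 1D. The 73 MHSs on 1A lie from 299 to 429594 and all are spikelet-only, with a median fold of 3.95, and 56 of them had a q of 1e-05 or lower. The local background in this run had a median of 0.982 times the list's own. The first 10 Mb of 1A held 403 spikelet MHSs, of which 53.3% were spikelet-only, the highest share of the full bins of 1A with at least 50 spikelet MHSs. Without the run they held 330, of which 43.0% were spikelet-only, and the ratio to the seedling changed from 1.11 to 0.912. The corresponding shares in the first 10 Mb were 39.2% on 1B and 46.0% on 1D.

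The densest 1 Mb windows lay near the ends. For the seedling they were at 549 to 550 Mb on 1A with 63 seedling and 72 spikelet MHSs, at 667 to 668 Mb on 1B with 69 and 64, and at 493 to 494 Mb on 1D with 73 and 63. The next in rank were at 545 to 546 Mb on 1A with 62 seedling MHSs, at 4 to 5 Mb on 1B with 64, and at 0 to 1 Mb on 1D with 69. For the spikelet, the densest window of 1A was the first Mb with 74 MHSs, 73 of which form the run described above. This window held 2 seedling MHSs, which lay beyond the run. It was followed by 549 to 550 Mb with 72. On 1B it was at 633 to 634 Mb with 76 spikelet and 50 seedling MHSs, followed by 662 to 663 Mb with 71 and 64. On 1D it was at 479 to 480 Mb with 71 and 69, followed by 481 to 482 Mb with 70 and 67. The window on 1B at 633 Mb holds a run of 20 spikelet-only MHSs from 194988530 to 195033179 on part 2, with a median local background 4.54 times that of the list. Apart from the first Mb of 1A, the dense windows were thus dense in both lists. The average window held 20.2 seedling MHSs on 1A, 19.8 on 1B and 23.2 on 1D, so the densest ones were 3.12, 3.49 and 3.15 times as dense. Windows with at least 50 seedling MHSs numbered 20 of 594 on 1A, 18 of 689 on 1B and 24 of 495 on 1D, and windows with at least 50 spikelet MHSs numbered 27, 13 and 25.

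The longest interval without an MHS of either list was nearly the same on the homoeologs, with 1151 kb on 1A, 1159 kb on 1B and 1153 kb on 1D. It lay from 183543948 to 184695220 on part 1 of 1A and from 237524004 to 238682552 on part 1 of 1B, both within the trough. On 1D it lay from 322398024 to 323551437 on part 1, outside the trough at 65.1% of the length. Intervals of at least 300 kb numbered 279 on 1A, 308 on 1B and 186 on 1D, and they made up 19.6%, 19.0% and 16.0% of the length. The longest runs of seedling-only MHSs held fewer MHSs than those of spikelet-only MHSs. They held 10 MHSs on 1A, in 2 places, 9 on 1B and 10 on 1D. The run on 1D from 167727925 to 168323024 and the run on 1A from 209505445 to 210741365, both on part 1, lay in the trough. The other run of 1A lay from 116566600 to 116958043 on part 2, and that of 1B from 14288354 to 14543335 on part 1, in the bin from 10 to 20 Mb.

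The strongest MHSs were described by the pileup of reads at the summit and the local background, which were solved from the fold and the p-value of each peak. The largest seedling folds were 28.8 on 1A, 34.0 on 1B and 24.4 on 1D. The MHS of 1A lies from 83152421 to 83152785 on part 2, with a pileup of 114 reads over a background of 3.00. The overlapping spikelet MHS had a pileup of 163 reads but a fold of 2.99, since its background was 53.8. The second of 1A lies close by, from 83178800 to 83179411, with a fold of 23.3 from 159 reads over 5.86, against a spikelet fold of 3.17 from 169 reads over 52.6. The spikelet list has a run of 9 spikelet-only MHSs from 83183953 to 83211756 beside it, with a median background of 40.2 reads (a run chosen after its values were seen). The third, from 24439476 to 24439755 on part 1, was strong in both lists, with a fold of 17.4 from 75 seedling reads and 20.9 from 135 spikelet reads, and it was the second of the spikelet on 1A.

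On 1B the largest seedling fold lies from 80874975 to 80875347 on part 1, with 296 reads over 7.74. It was also the second of the spikelet, with a fold of 21.9 from 225 reads. The next seedling MHSs of 1B, from 80735793 to 80736346 on part 1 and from 105868069 to 105868413 on part 2, had folds of 20.1 and 16.5, against 5.75 and 4.49 in the spikelet. Their pileups of 73 and 180 seedling reads were lower than the 195 and 203 reads of the spikelet, whose local background was 33.1 and 44.4. On 1D, the largest seedling fold lies from 39244401 to 39244777 on part 2, with 196 reads, against 221 reads and a fold of 12.4 in the spikelet. It was followed by a fold of 20.9 from 144237108 to 144237465 on part 1 and one of 17.3 from 50072606 to 50073136. All 9 of these seedling MHSs overlapped a spikelet MHS, and 7 of the 9 had more reads at the spikelet summit. Since they were chosen by their seedling fold, the lower spikelet fold of 8 of them is given as a description.

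The largest spikelet folds were more often tissue-only. They were 21.8 on 1A, from 301032359 to 301032729, 23.4 on 1B, from 345994462 to 345994836, and 18.4 on 1D, from 265536949 to 265537317, all on part 1. These 3 MHSs had 148, 115 and 126 reads at the summit and lay 86.6, 169 and 2.36 kb from the nearest seedling MHS. They lay at 50.7%, 50.2% and 53.6% of the chromosome length, away from the dense ends. The third of 1B, from 143351431 to 143351803 with a fold of 19.9, and the third of 1D, from 100503892 to 100504561 with a fold of 16.6, also had no seedling MHS. The third of 1A, from 67135393 to 67135827, had 148 reads and a fold of 18.6 against 40 reads and 8.07 in the seedling. The second of 1D, from 52216278 to 52216692, had 122 reads and a fold of 17.9 against 23 reads and 5.29. In all, 5 of these 9 spikelet MHSs overlapped no seedling MHS. At a fold of 12 or more, 27.1% of spikelet MHSs over all chromosomes were spikelet-only, and 0.314% of seedling MHSs were seedling-only. On 1A, 1B and 1D the spikelet-only share at this fold was 28.6%, 23.7% and 29.0%, of 35, 38 and 31 MHSs. At a fold of 8 or more, 7 of 637 seedling MHSs on 1A, 5 of 616 on 1B and 6 of 539 on 1D were seedling-only, or 1.00% for the 3 homoeologs together, against 1.07% over all chromosomes. In the spikelet 42 of 766, 50 of 754 and 38 of 626 were spikelet-only, or 6.06% (5.12 to 7.15) together, against 7.22% over all chromosomes.

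On each homoeolog the widest MHS lay at a different place in the seedling and the spikelet. Whether those of different homoeologs correspond was not tested. In the seedling they were 2230 bp wide on 1A, from 19624714 to 19626943, 3217 bp on 1B, from 26089370 to 26092586, and 2430 bp on 1D, from 232117289 to 232119718. They overlapped 2, 3 and 2 spikelet MHSs. In the spikelet the widest had 1889 bp on 1A, from 112775630 to 112777518, 1936 bp on 1B, from 382226745 to 382228680, and 2255 bp on 1D, from 180363559 to 180365813. Those of 1A and 1D overlapped no seedling MHS, and that of 1B overlapped 2. All 6 lie on part 1.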

How the data were processed

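MH-seq libraries of seedlings and spikelets, 2 merged biological replicates per tissue, were used as deposited peak lists. According to the methods, the authors trimmed reads with fastp and aligned them by bowtie2 against the IWGSC assembly 1.0. Sambamba then removed duplicates, poorly mapped reads were dropped, and MACS2 (version 2.0) called the peaks. The deposited fold enrichment is a ratio, (pileup + 1) over (local background + 1), taken at the summit. The deposited −log10 p-value and −log10 q-value refer to the summit, and the deposited score is the whole part of 10 times the −log10 q. The highest q in the seedling list was 0.0499, and that in the spikelet list 0.0462, both above the threshold that the methods give.

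Peaks of chromosomes 1A, 1B and 1D were counted by midpoint in bins of 10 Mb, windows of 1 Mb and shares of the length. Bins not filled to 10 Mb at the far end were left out. The pileup and the background were solved from the fold and the p of each peak, assuming that the p is a Poisson tail. The pileup came out whole, within 0.02, for 100% of the peaks of both lists, with a median of 26 reads in the seedling and 31 in the spikelet. Total read depth is not held by the lists. The calculations were tested on simulated data. The regions named are, for each homoeolog and list, the 3 largest folds, the widest MHS, the 2 densest windows, the longest tissue-only run and the bins with the highest and lowest tissue-only share (among bins of at least 50 MHSs), and for both lists together the lowest and highest bins and the longest gap. The members, the bins and the measures were chosen with earlier results of these data known. The 60 Mb stretch around the trough and the bins described as chosen after their values were seen fall outside this rule. Alternatives changed the q threshold, the overlap, the bins, the ends and the unit of density. Gene annotation and DNA sequence of the build used were not used here. Calculations ran in Python 3.11.15 with scipy 1.17.1, numpy 2.4.6 and pandas 2.3.3, and plots were drawn by matplotlib 3.10.9.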

Additional observations from a re-analysis of the deposited data

How the results depend on the processing

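Of 110 values of 40 results under alternative settings, 48 stayed close (counts within 1.5 times, shares and ratios within the 95% interval, the lowest interval overlapping the first one), 53 moved further and 9 reversed. The reversed ones concern the order of the tissues. The ratio of spikelet to seedling numbers (0.962 on 1A, 0.941 on 1B and 0.991 on 1D) became 1.03, 1.01 and 1.06 at a q up to 0.001, and 1.19, 1.16 and 1.1985 at a q up to 1e-05. The seedling-only minus the spikelet-only share (3.88, 5.34 and 2.10 percentage points) became -10.5, -8.92 and -11.3 with both lists at a q up to 1e-05, and 2.06, 3.22 and 0.52 with a reciprocal overlap. The settings for the trough, the run and the order of the tissues were added after seeing the data. At a q up to 1e-05, seedling MHSs numbered 7932 on 1A and 8906 on 1B, the densest window of 1D held 48 seedling MHSs, and the seedling share in the ends was 34.0% on 1A, 32.2% on 1B and 31.6% on 1D. The share in the outermost 5% was 18.5% for seedling and 19.4% for spikelet MHSs on 1A, 18.4% and 17.96% on 1B, and 18.5% and 18.1% on 1D. In the outermost 20% it was 57.4% and 59.8% on 1A, 54.2% and 54.1% on 1B, and 55.5% and 55.5% on 1D. Bins starting 5 Mb later put the lowest interval at 205 Mb on 1A and 145 Mb on 1D, and 5 Mb bins put that of 1D at 150 Mb. Requiring a reciprocal overlap of 50% gave tissue-only shares of 47.6% and 45.5% on 1A, 48.5% and 45.3% on 1B, and 45.2% and 44.7% on 1D. They were 32.3% and 28.5%, 34.0% and 28.4%, and 30.5% and 28.1% when an MHS within 500 bp counted as shared. Both lists limited to q values up to 1e-05 gave 25.9% and 36.4%, 27.5% and 36.4%, and 25.0% and 36.3%. The seedling-only share of the trough (56.8%, 51.3% and 48.3%) became 32.3%, 32.7% and 26.1% with that threshold, 63.5%, 63.0% and 58.6% within 10 Mb of the centre, 50.7% on 1A and 44.3% on 1D within 50 Mb, and 64.7%, 60.0% and 56.6% with a reciprocal overlap. The outermost 5% and 20% are other lengths than the outermost 10%, so those shares moved by construction. A reciprocal overlap can only raise a tissue-only share, and sharing within 500 bp can only lower it. The cause of the other shifts was not tested. No paired analysis was possible because a tissue is represented by 1 list from merged replicates. Read depth and replicate spread cannot be read from the lists, which limits each comparison of tissues.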

Other observations

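MHSs that paired one to one between the lists were compared for their position and strength. Chromosome 1A had 7180 such pairs, 1B had 8076 and 1D had 7133, which is 59.9%, 59.2% and 62.1% of the seedling MHSs, against 60.1% on the other 18 chromosomes. The median distance between both summits was 52 bp on 1A, 55 bp on 1B and 52 bp on 1D, and the summits lay within 50 bp of each other in 49.4%, 47.0% and 49.1% of the pairs. The median log2 ratio of the spikelet to the seedling fold was 0.10 on 1A, 0.09 on 1B and 0.09 on 1D, against 0.10 on the other chromosomes. A fold more than 2 times as high in the spikelet was seen in 140 pairs on 1A, 104 on 1B and 107 on 1D. The reverse was seen in 49, 57 and 53. As shares of the pairs, the former ran from 1.29% on 1B to 1.95% on 1A, against 1.71% on the other 18 chromosomes. The latter ran from 0.682% on 1A to 0.743% on 1D, against 0.678%. The excess of pairs with the higher spikelet fold was thus not particular to group 1. Pearson's r of the log2 folds over pairs was 0.577, 0.581 and 0.571, which describes peaks of the same libraries that were all called in both lists.

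Besides the trough, both 1A and 1B had a sparse bin on the way to it, chosen after the profiles were seen. On 1A the bin from 80 to 90 Mb held 94 seedling and 86 spikelet MHSs, between bins with 179 and 161 before and 204 and 179 after it. On 1B the bin from 70 to 80 Mb held 107 and 88, between bins with 263 and 264 before and 146 and 137 after it. Each holds a long interval without MHSs, of 1096 kb from 80691908 to 81787615 on 1A and of 927 kb from 78574102 to 79501459 on 1B, both on part 1. On 1B a longer interval of 968 kb, from 79501737 to 80469272, begins just after it and runs into the next bin. Chromosome 1B had a further sparse bin at 120 to 130 Mb, with 122 seedling and 86 spikelet MHSs. The bin before it held 160 and 156, and the bin after it 173 and 175. The second longest interval of 1D, with 933 kb, lies in the trough. Between 50 and 120 Mb, the sparsest bin of 1D held 132 seedling and 135 spikelet MHSs, at 90 to 100 Mb. On the far side, 1A had a further sparse bin at 410 to 420 Mb with 82 MHSs in either list.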
